A study of Rattus norvegicus with 12 samples.

Results

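A set of 10 circadian clock genes was followed in the rat hippocampus: the repressor genes Per1, Per2, Per3 and Cry2, the activator genes Clock and Bmal1 (Arntl in the platform annotation), the nuclear receptor genes Nr1d1 and Nr1d2, the output transcription factor gene Dbp and the repressor gene Bhlhe40. They were taken by Entrez ID from a fixed list of symbols, and 10 of 10 were measured, each by 1 probe set, among 9962 genes. RNA came from the whole hippocampus of adult male rats of generation F4, aged P102-107. The bred High Responder line (bHR) was selected over generations for strong locomotor activity in an unfamiliar arena, and the bred Low Responder line (bLR) for weak activity there. There were 6 rats per line, 1 per array, with no drug or other treatment given in the labels. Per the labels, 1 array per line failed quality control (replicate 1 of bHR, replicate 5 of bLR), so each line kept 5 arrays. The hippocampus arrays were all run in 1 batch, per the series' design text. All levels are log2 values, and all differences are bHR minus bLR. The hour at which each rat was killed and the light schedule are not given in the sources used here.

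The clock is a feedback loop of transcription that runs in most cells. CLOCK and BMAL1 bind E-box sequences as a pair and switch on the Per, Cry, Nr1d, Dbp and Bhlhe40 genes. PER and CRY proteins then block CLOCK and BMAL1, while the products of Nr1d1 and Nr1d2 repress Bmal1 through RORE sequences, so that over the day Bmal1 RNA peaks at about the opposite time to Nr1d1, Dbp and Per3 RNA. In the hippocampus the loop is entrained by signals from the suprachiasmatic nucleus, by glucocorticoids and by feeding and activity, and Per1 and Bhlhe40 also respond to neuronal activity. In bulk tissue, fewer cells of a type and less RNA per cell cannot be told apart.

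The sequences before the start sites of 4 members are shown because they hold letters that match the elements through which the arms of the loop act on each other. Binding to them was not measured. They are RefSeq promoters of assembly GRCr8, 250 bases up to the start site, 5′ to 3′ on the gene's strand, with every motif match in capitals. Motifs were searched on both strands over a window that also held the first 50 bases after the start, and positions count the first base of a match, with -1 just before the start. Per2 holds an E′-box (CACGTT) at -62 and a D-box, the element bound by DBP, at -192 (chr9:99496994-99497243, minus strand). Bmal1 holds a RORE core at -16 (chr1:176766078-176766327, plus strand). Nr1d1 has start sites listed at 2 places, the first with an E′-box at -174 (chr10:84231813-84232062, minus strand) and the second with an E-box (CACGTG) at -191 (chr10:84229455-84229704, minus strand). Bhlhe40 holds an E-box at -220 (chr4:143174200-143174449, plus strand).
Per2: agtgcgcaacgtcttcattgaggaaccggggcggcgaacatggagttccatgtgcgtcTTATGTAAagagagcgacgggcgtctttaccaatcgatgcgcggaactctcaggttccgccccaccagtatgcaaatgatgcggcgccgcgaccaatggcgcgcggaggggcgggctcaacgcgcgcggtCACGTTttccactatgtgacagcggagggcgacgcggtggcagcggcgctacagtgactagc
Bmal1: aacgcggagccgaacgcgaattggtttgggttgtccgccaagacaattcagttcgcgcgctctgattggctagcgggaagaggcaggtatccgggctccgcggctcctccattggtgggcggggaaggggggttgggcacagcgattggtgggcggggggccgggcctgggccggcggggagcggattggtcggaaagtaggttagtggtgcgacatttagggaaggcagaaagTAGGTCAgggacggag
Nr1d1, first start: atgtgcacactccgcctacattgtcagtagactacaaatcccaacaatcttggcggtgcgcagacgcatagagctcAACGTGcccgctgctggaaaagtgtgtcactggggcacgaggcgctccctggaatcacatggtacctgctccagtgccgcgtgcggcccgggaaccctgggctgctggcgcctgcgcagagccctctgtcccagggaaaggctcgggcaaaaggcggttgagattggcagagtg
Nr1d1, second start: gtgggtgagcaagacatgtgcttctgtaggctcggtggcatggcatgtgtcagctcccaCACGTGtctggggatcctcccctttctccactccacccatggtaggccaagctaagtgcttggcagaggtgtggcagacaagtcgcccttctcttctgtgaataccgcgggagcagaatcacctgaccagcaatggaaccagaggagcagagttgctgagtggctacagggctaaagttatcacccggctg
Bhlhe40: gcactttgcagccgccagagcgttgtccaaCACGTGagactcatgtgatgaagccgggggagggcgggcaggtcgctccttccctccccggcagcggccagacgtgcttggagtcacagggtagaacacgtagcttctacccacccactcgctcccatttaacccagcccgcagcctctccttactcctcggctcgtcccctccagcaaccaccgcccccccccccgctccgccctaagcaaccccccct

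All 10 members had a promoter in the table, and over all their start sites 2 held the E-box, 3 the E′-box, 1 the RORE core (TAGGTCA or TGGGTCA), 1 the D-box (TTATGTAA or TTATGCAA) and 0 the CRE (TGACGTCA), the element of CREB. The third E′-box lay at -212 of Cry2. Of 33469 promoters of the same length, 6.42% held the E-box, 4.83% the E′-box, 6.60% the RORE core, 1.73% the D-box and 1.83% the CRE. No motif overlapped another in these windows. For Per1, Per3, Clock, Dbp and Nr1d2 these letters were not in the window.

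A group of 3 arrays stood apart in loss of 5′ signal, and the line differences of the members are also given without them. On bLR replicates 2 and 3 and bHR replicate 6, the 5′ minus 3′ log2 value of the control RNA dap was between -1.82 and -1.36. On the other 7 it was -0.42 to -0.072. The dap probe sets are array controls and not rat genes, so this value is not a reading of rat RNA. The step at which the signal was lost was not tested. For the beta-actin 5′ minus 3′ value the mean was -1.76 ± 0.36 for bHR against -2.21 ± 1.01 for bLR (SD over 5 rats each; exact permutation p = 0.437, two-sided). Of the hippocampal neuron markers, 6 of 10 were measured, and the granule neuron markers Prox1 and Calb1 lay between 7.05 and 7.995, above 85.0% and 89.8% of genes by their means. Wfs1, a marker of CA1 neurons, ran from 6.26 to 7.72, while Camk2a, Dsp and Pou3f1 lay between 4.92 and 5.71, above 39.7% to 46.3% of genes. RNA of the neighbouring choroid plexus varied widely: its marker Ttr ran from 5.34 to 11.06. All 10 measured choroid plexus markers had the higher mean in bHR (median difference 0.146), and 0 passed the test. Ttr averaged 9.44 ± 2.13 in bHR and 7.53 ± 2.32 in bLR (SD over 5 rats each, exact permutation p = 0.19, two-sided). An unadjusted limma p under 0.05 was found for 2 of these markers, Enpp2 (0.54) and Cab39l (0.14), against 2.94% of all genes. Of the 5 genes listed as hypothalamus markers, Trh, Oxt and Hcrt lay between 4.50 and 4.96, above 13.2% to 26.1% of genes by their means. Avp (5.05 to 5.45) and Vip (5.33 to 5.99) lay above 40.6% and 57.3%, and whether they are specific to that tissue was not tested.

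The Per genes encode repressors that close the loop. For Per1 the bHR arrays (replicates 2 to 6 in order) read 7.04, 6.98, 7.0004, 7.02 and 6.88, and the bLR arrays (replicates 1, 2, 3, 4 and 6) read 6.98, 6.90, 6.98, 6.95 and 6.84. For Per2 the same bHR arrays read 6.31, 6.08, 6.13, 6.21 and 6.06, and the bLR arrays 6.01, 6.11, 6.18, 6.23 and 5.74. Replicate 6 of each line had the lowest Per1, bLR replicate 6 was also lowest in Per2, and the lines overlapped in both genes. Per3 ran from 4.29 on bHR replicate 6 to 4.55 on bHR replicate 4, and its signal was low, with 3.89% of genes below its mean. Cry2, whose product pairs with PER, ran from 6.74 on bHR replicate 6 to 7.06 on bHR replicate 2. Its 3 lowest values came from those arrays whose dap value was lowest.

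Of the activator genes, Clock hardly varied, from 5.10 on bHR replicate 5 to 5.25 on bLR replicate 2. Bmal1 read 5.45, 5.56, 5.70, 5.44 and 5.36 in bHR and 5.44, 5.55, 5.23, 5.62 and 5.58 in bLR. It was highest on bHR replicate 4 and lowest on bLR replicate 3, and the lines overlapped over most of their range. Dbp, a PAR bZIP factor that acts on D-boxes, read 5.91, 6.08, 5.99, 6.19 and 5.86 in bHR and 5.93, 6.07, 6.00, 6.41 and 6.16 in bLR, so that bLR replicate 4 stood above all others.

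The nuclear receptor genes Nr1d1 and Nr1d2 encode REV-ERB alpha and beta, which repress Bmal1. Nr1d1 read 4.81, 4.76, 4.85, 4.88 and 4.80 in bHR and 4.99, 4.85, 5.18, 4.90 and 4.65 in bLR. The bLR arrays held both its highest value, on replicate 3, and its lowest, on replicate 6, and the bHR values lay between these. The signal of Nr1d1 was low, with 27.0% of genes below its mean. Nr1d2 read 5.45, 5.38, 5.43, 5.47 and 5.45 in bHR and 5.31, 5.41, 5.33, 5.40 and 5.55 in bLR, highest on the array that was lowest in Nr1d1. Bhlhe40, a basic helix-loop-helix repressor that competes at E-boxes, read 5.12, 5.11, 5.15, 5.19 and 5.45 in bHR and 5.03, 5.11, 4.90, 4.92 and 5.39 in bLR. Replicate 6 of each line was above the others of its line.

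**Figure D1:**
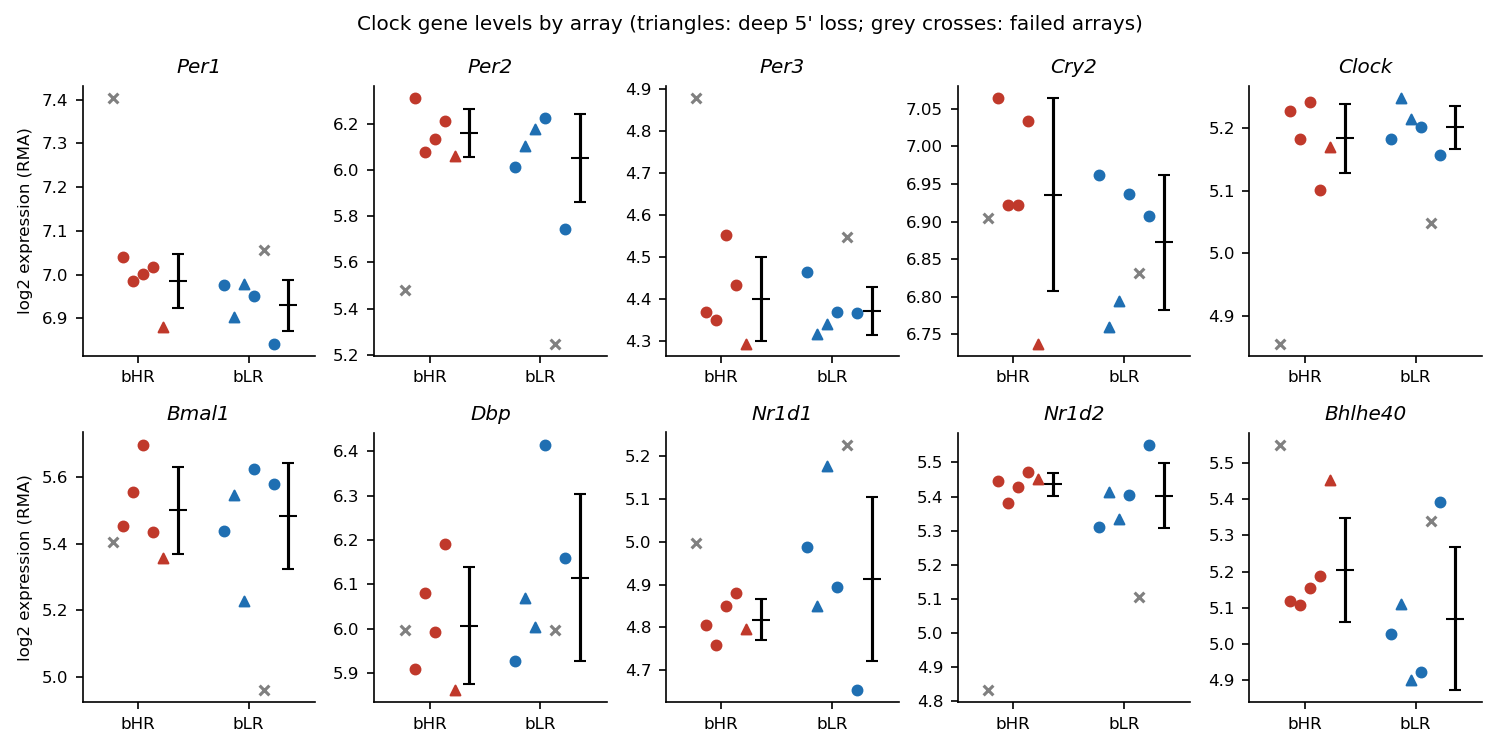
Log2 expression of the 10 clock genes (vertical axis, RMA units, own scale in each panel) on the arrays of each line. Points are arrays, in order of replicate number, triangles are the 3 arrays with the lowest dap 5′ minus 3′ value, grey crosses are the 2 failed arrays, and bars show mean ± SD of the 5 passing arrays. The lines overlap in all 10 panels.

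The spread between rats of a line differed among members. The within-line SD, pooled over both lines, was 0.173 for Bhlhe40, 0.163 for Dbp, 0.154 for Per2, 0.145 for Bmal1 and 0.140 for Nr1d1, against a median of 0.0958 over all 9962 genes, and these 5 members exceeded 76.0% to 86.0% of all genes. It was 0.111 for Cry2, 0.081 for Per3, 0.0708 for Nr1d2, 0.060 for Per1 and 0.0458 for Clock, and Clock exceeded only 6.50% of all genes. On the 7 arrays without the 3 of lowest dap value, Dbp (0.181) exceeded 94.9% of genes, Per2 (0.172) 94.1% and Bhlhe40 (0.158) 91.9%. The SD of Cry2 was 0.0603 on these 7 arrays, 28.6% of genes being below it. In fold terms, the highest of the 10 arrays exceeded the lowest 1.48-fold for Per2, 1.47-fold for Dbp and for Bhlhe40, 1.44-fold for Nr1d1, 1.38-fold for Bmal1, 1.15-fold for Per1 and 1.11-fold for Clock.

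The comparison of the lines addressed whether clock gene expression differs between the selected lines. No member passed the test: 0 of 10 were called by limma over all 9962 genes (adjusted p = 0.992 for each), where 0% of all genes were called. At an unadjusted p under 0.05 there were 0 of 10 members, against 2.94% of all genes (293), and 0 of 10 had lines without overlap, against 0.291% of all genes. A trended and robust prior gave 0 calls and 265 genes at an unadjusted p under 0.05.

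Bhlhe40 had the widest difference, at 5.20 ± 0.14 for bHR against 5.07 ± 0.20 for bLR (SD over 5 rats each), or 0.13 on the log2 scale (SE 0.097). Leaving out bHR replicate 6 gave 0.072 and leaving out bLR replicate 6 gave 0.21, and the difference was 0.029 without the 3 arrays of lowest dap value. Dbp had 6.01 ± 0.13 in bHR and 6.12 ± 0.19 in bLR, a difference of -0.11 (SE 0.092), which was -0.033 without bLR replicate 4. Per2 had 6.16 ± 0.10 in bHR and 6.05 ± 0.19 in bLR, a difference of 0.11 (SE 0.087), which was 0.028 without bLR replicate 6 and 0.19 without the 3 arrays of lowest dap value. The size of these 3 differences therefore changed with the arrays used. Nr1d1 differed by -0.094 (SE 0.080), from 4.82 ± 0.048 in bHR to 4.91 ± 0.19 in bLR, by -0.028 without bLR replicate 3, by -0.16 without bLR replicate 6 and by -0.022 without the 3 arrays. The remaining 6 differences lay between -0.017 (Clock) and 0.064 (Cry2), with 0.054 for Per1, 0.033 for Nr1d2, 0.029 for Per3 and 0.017 for Bmal1. Leaving out 1 array gave 0.032 (bHR replicate 2) to 0.11 (bHR replicate 6) for Cry2, and 0.032 for Per1 without bLR replicate 6. For Nr1d2 it gave 0.011 (bLR replicate 1) to 0.071 (bLR replicate 6). Without the 3 arrays of lowest dap value the differences were 0.087 for Per1, 0.026 for Per3, 0.050 for Cry2, 0.0068 for Clock, -0.011 for Bmal1, -0.12 for Dbp and 0.0094 for Nr1d2.

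Altogether 7 members had the higher mean in bHR and 3 (Clock, Dbp, Nr1d1) the lower one. The median difference was 0.031 over the members and 0.00078 over all genes, and the median absolute difference was 0.059 and 0.041. The 95% confidence intervals were taken gene by gene, with no adjustment for the number of members. Over the 10 members the widest interval, that of Bhlhe40, ran from -0.078 to 0.35, so the largest ratio it contains is 1.27-fold. For Clock the interval ran from -0.10 to 0.068 and for Per1 from -0.042 to 0.15.

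**Figure D2:**
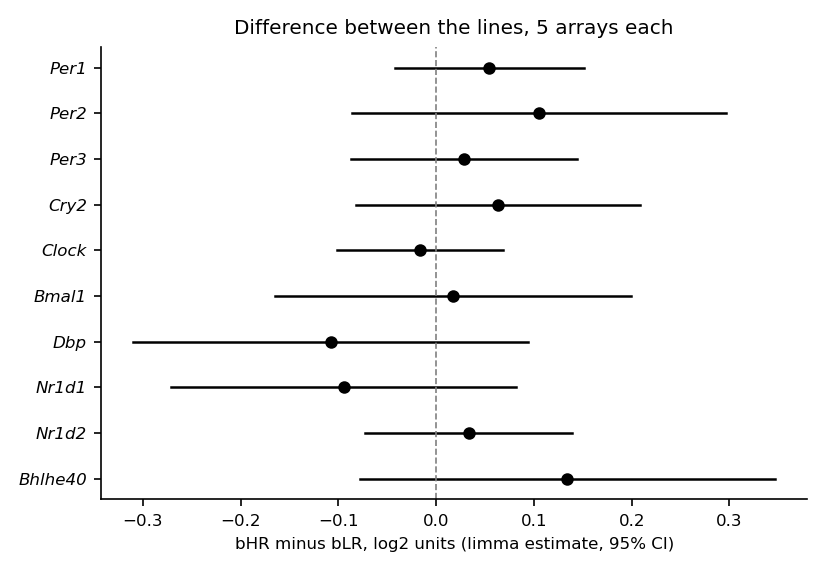
Difference between bHR and bLR for each clock gene (horizontal axis, log2 units), with points for the limma estimate and lines for its 95% confidence interval, 5 arrays per line. All 10 intervals contain 0, and they are widest for Bhlhe40, Dbp and Per2.

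How the arms of the loop moved together from rat to rat was examined over the 10 passing arrays, for all 45 pairs of members. None passed after Benjamini-Hochberg adjustment over the 45 pairs (0 of 45 by Pearson's r, smallest adjusted p = 0.176, permutation test). By Spearman's rho 0 of 45 passed, the nearest being Nr1d2 with Bhlhe40 (adjusted p = 0.0572, permutation test). At an unadjusted permutation p under 0.05 there were 5 pairs by r, which are given next as values, and 3 of these were chosen after their values were seen. The signs were split, with 24 of 45 pairs above 0.

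Per1 and Per2 had r = 0.766 (permutation p = 0.00684) and rho = 0.673 (permutation p = 0.0377, adjusted p = 0.359). On the 7 arrays r was 0.874 (exact permutation p = 0.0230), and without the arrays farthest from the median of Per1, bLR replicate 6 and bHR replicate 6, it was 0.460. Replicate 6 of each line was low in both paralogs, while bLR replicate 4 was second highest in Per2 and seventh in Per1. Per1 and Cry2 had r = 0.660 (permutation p = 0.0390, adjusted p = 0.351) and rho = 0.709 (permutation p = 0.0270, adjusted p = 0.359), and r = 0.806 without those arrays.

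Nr1d1 and Nr1d2, which are paralogs and share their place in the loop, had an r below 0, at -0.775 (permutation p = 0.0107, adjusted p = 0.176), with rho = -0.600 (permutation p = 0.0739, adjusted p = 0.554). It was -0.761 on the 7 arrays (exact permutation p = 0.0508) and -0.748 after regression on the beta-actin value. Leaving out 1 array gave -0.873 to -0.668, and without bLR replicates 3 and 6, the farthest in Nr1d1, r was -0.536 (exact permutation p = 0.174). Nr1d2 and Bhlhe40 had r = 0.757 (permutation p = 0.0118, adjusted p = 0.176) and rho = 0.891 (permutation p = 0.00127). Their r stood at 0.808 on the 7 arrays and 0.709 without bLR replicates 6 and 1, the farthest in Nr1d2. Nr1d1 and Bhlhe40 had r = -0.728 (permutation p = 0.0175, adjusted p = 0.197) and rho = -0.673 (permutation p = 0.0399, adjusted p = 0.359), and -0.486 by r without bLR replicates 3 and 6. Nr1d1 therefore ran opposite to both Nr1d2 and Bhlhe40 on these arrays, as values that did not pass the adjustment. The low signal of Nr1d1, with 27.0% of genes below its mean, limits these values.

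Between the arms that peak at opposite times, r had no common sign. Bmal1 had r = -0.597 with Nr1d1 (adjusted p = 0.511, permutation test), which was -0.288 on the 7 arrays and -0.156 without bLR replicate 3 alone. With the other genes of the opposite arm, the r of Bmal1 was 0.340 for Nr1d2, 0.450 for Dbp, 0.443 for Per3 and -0.178 for Per2. The activator pair Clock and Bmal1 had r = 0.218, and 0.504 on the 7 arrays. Within the arm driven through E-boxes, Dbp had r = -0.108 with Per1, 0.019 with Per2, -0.012 with Per3 and -0.101 with Nr1d1, and Per2 with Per3 had 0.049. The unadjusted permutation p was 0.195 or above for each of these pairs other than Bmal1 with Nr1d1 (0.0682), and the adjusted p was 0.511 or above for all.

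**Figure D3:**
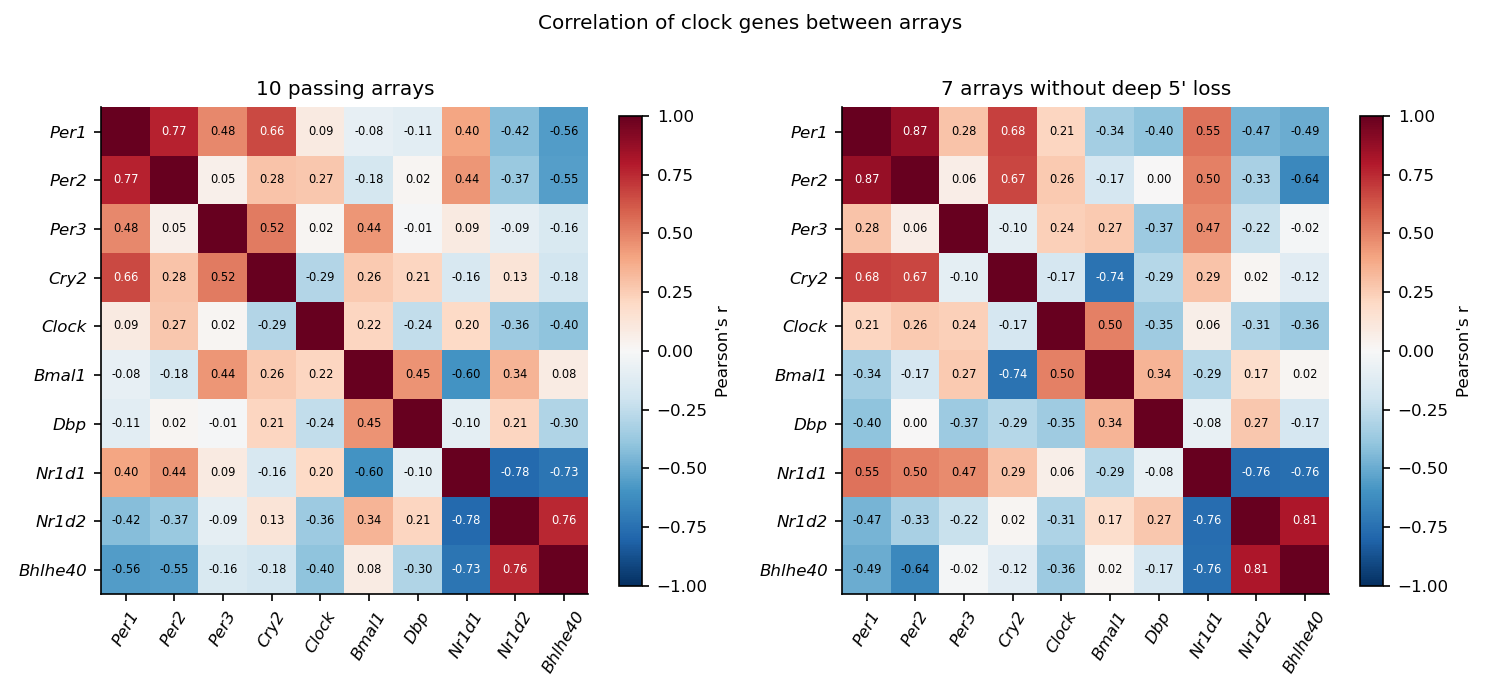
Pearson's r for all 45 pairs of clock genes, over the 10 passing arrays (left) and over the 7 without the arrays of lowest dap value (right), from blue (-1) to red (1). The pairs of Per1 with Per2 (0.77 and 0.87) and of Nr1d1 with Nr1d2 (-0.78 and -0.76) keep their sign in both panels. Dbp with Per2 is near 0 in both (0.019 and 0.0026), and Dbp with Bmal1 is 0.45 and 0.34.

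**Figure D4:**
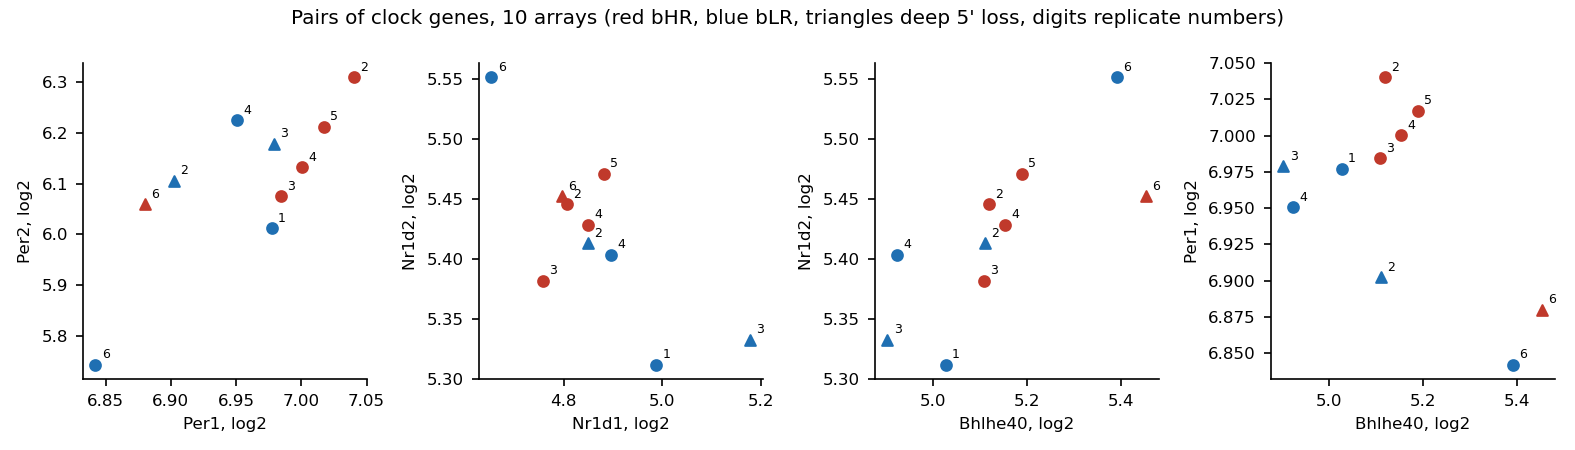
Log2 levels of 4 pairs of clock genes on the 10 passing arrays, with replicate numbers, bHR in red, bLR in blue and triangles for the 3 arrays of lowest dap value. Replicate 6 of each line has the lowest Per1 and the highest Bhlhe40.

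After values were centred within each line, Per1 and Bhlhe40 had the r farthest from 0, at -0.901 (exact permutation test within lines, p = 0.00771, adjusted p = 0.246 over the 45 pairs). Without centring, r over the 10 arrays was -0.558, with rho = -0.164, and r was 0.349 without replicate 6 of each line. The sign of the uncentred r therefore depended on those arrays, and the centred r was not computed without them. Centring within lines left 0 of 45 pairs past the threshold.

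Array measures that could move with the members were set beside them in 30 relations, of the 10 members with the beta-actin 5′ minus 3′ value, the level of Ttr and the mean level of 7 activity-responsive genes. None passed (0 of 30, smallest adjusted p = 0.226, permutation test), and 2 had an unadjusted p under 0.05. Cry2 had r = 0.730 with the beta-actin value (permutation p = 0.0151) and rho = 0.552 (permutation p = 0.103, adjusted p = 0.451), with r = 0.692 without the 2 arrays farthest in that value and 0.069 on the 7 arrays. Per2 had r = 0.713 with the activity-responsive mean (permutation p = 0.0137) and rho = 0.648 (permutation p = 0.0487, adjusted p = 0.451), with r = 0.516 without the 2 farthest arrays and 0.807 on the 7 (exact permutation p = 0.0202, adjusted p = 0.607). Bhlhe40 had r = -0.598 with the same mean (permutation p = 0.0688) and rho = -0.503 (permutation p = 0.144, adjusted p = 0.481), with r = -0.290 without the 2 farthest arrays and -0.768 on the 7 (exact permutation p = 0.0411, adjusted p = 0.616). By rho, Per3 with the beta-actin value had 0.818 (permutation p = 0.00601, adjusted p = 0.180). With Ttr, r lay between -0.315 (Nr1d1) and 0.407 (Bmal1). The activity-responsive mean itself was 5.36 ± 0.056 for bHR against 5.37 ± 0.065 for bLR (SD over 5 rats each; exact permutation p = 0.833, two-sided). The part of these measures in the values of the members was not tested.

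The labels give each rat's locomotor score in the test arena, and its slope within lines was fitted per 100 beam breaks. Over the 5 passing rats of each line, scores ran from 1178 to 1328 in bHR and from 319 to 557 in bLR. No member passed (0 of 10 by limma, with 0% of all genes called), and 2 of 10 had an unadjusted p under 0.05, against 4.12% of all genes (410). Bhlhe40 had a slope of 0.16 (SE 0.043, adjusted p = 0.989), and 0.12 to 0.18 when any 1 array was left out. Each of those fits kept replicate 6 of at least 1 line, and the slope without both was not fitted. Per2 had a slope of -0.12 (SE 0.047, adjusted p = 0.989), and it was -0.064 without bLR replicate 6. The highest-scoring rat of each line, replicate 6, also had the highest Bhlhe40 of its line. The lowest score of the bLR rats, replicate 3, went with the lowest Bhlhe40. Of these arrays, bHR replicate 6 and bLR replicate 3 were among the 3 of lowest dap value, and the slope without those 3 was not fitted. The lowest-scoring bHR rat, replicate 4, did not have the lowest Bhlhe40 of its line: it read 5.15, above replicates 2 and 3.

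**Figure D5:**
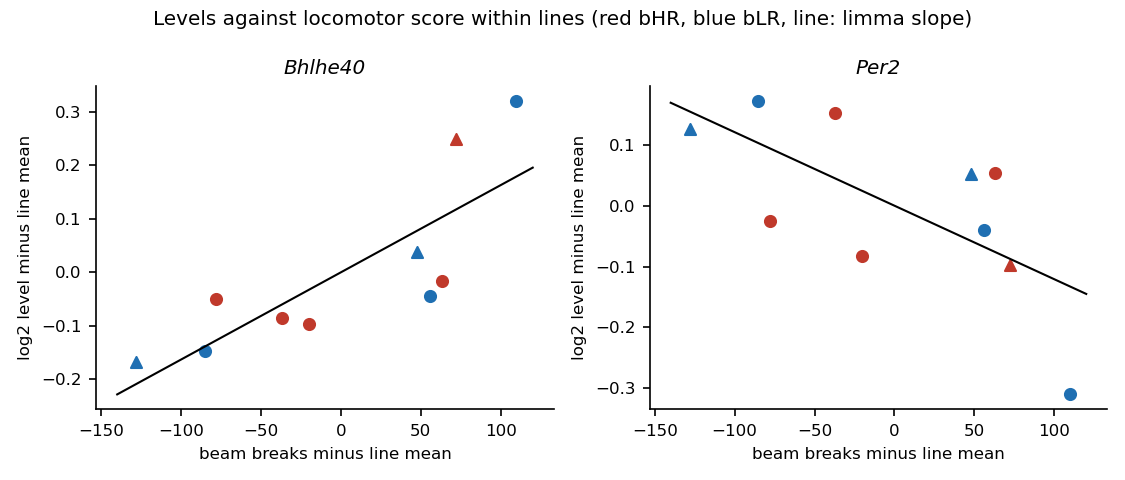
Log2 levels of Bhlhe40 and Per2, each minus its line mean (vertical axis), against beam breaks minus the line mean (horizontal axis), for bHR (red) and bLR (blue), 5 rats each. The black line is the fitted slope, 0.16 for Bhlhe40 and -0.12 for Per2 per 100 beam breaks, and triangles are the 3 arrays of lowest dap value.

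Other genes of the clock and of the signals that set it were taken from lists, and no gene of these passed the line comparison (limma over all 9962 genes). Of 9 other core clock and receptor genes, 4 were measured, 2 with the higher and 2 with the lower mean in bHR (median 0.0061). Rorb, a nuclear receptor that acts on ROREs, differed by 0.079, Timeless by -0.035 and Bhlhe41, the paralog of Bhlhe40, by -0.10. Of 5 clock output genes 2 were higher and 3 lower (median -0.0035), with 0.11 for Nampt, an enzyme of NAD synthesis, -0.084 for Nfil3, a repressor at D-boxes, and -0.12 for the ubiquitin protease gene Usp2. Of 12 kinases and ubiquitin ligases that set the stability of PER and CRY, 6 were higher and 6 lower (median -0.024), with 0.089 for Csnk1e, which phosphorylates PER, -0.080 for Prkaa1 and -0.087 for Fbxw11. None of these members had an unadjusted p under 0.05, and neither did any gene of the lists that follow.

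The 9 measured cofactors were 4 higher and 5 lower in bHR (median -0.021), with -0.21 for Nono and -0.088 for Hdac3, a deacetylase that works with REV-ERB through Ncor1, which differed by 0.062. Of 7 glucocorticoid-responsive genes 3 were higher and 4 lower (median -0.029), with -0.11 for Klf9, -0.084 for Sgk1 and 0.048 for Errfi1. Of 7 measured activity-responsive genes 2 were higher and 5 lower (median -0.011), with 0.093 for Junb, -0.081 for Arc and -0.030 for Btg2. Of 5 temperature-responsive genes 3 were higher and 2 lower (median 0.0083), with -0.15 for Rbm3 and 0.16 for Cirbp, both cold-inducible RNA-binding proteins, and -0.055 for the chaperone gene Hsph1.

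The genes whose pattern over the 10 arrays was most like a member's, after centring within lines, were not other members. The 3 nearest of each member had r between 0.880 and 0.988 among 9961 genes ranked, as a description of these 10 arrays. The nearest 3 were Asip, Krt7 and Ly86 for Per1, Armc3, Anapc13 and Thbd for Per2, Trim47, Tbp and Crybb2 for Per3, and Scn10a, Syt8 and Scrg1 for Cry2. They were Mrpl4, Coro2b and Pigt for Clock, Foxa2, Myl7 and Pithd1 for Bmal1, and Ramp1, Tpsb2 and Vamp8 for Dbp. For Nr1d1 they were Ralgdsl2, Fmo1 and Dusp19, for Nr1d2 Mrs2, Lcp1 and Pnn, and for Bhlhe40 Bltp1, Ddx5 and Ccdc47. The member that came closest to another was Bhlhe40, ranked 63 in likeness to Nr1d2 (r = 0.739), while Nr1d2 ranked 154 in likeness to Bhlhe40.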

How the data were processed

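RNA from 12 rats, 1 per array, was measured on the Affymetrix RAE230A array. The deposited log2 values came from RMA, run by the authors with affy 1.54.0, per the submitters' processing notes; RMA corrects background, quantile-normalizes and summarises probes. Probes had been grouped by Entrez gene through a custom definition file, version 19.0.0, per the series' design text. No genome build is given for them in the sources used here. Of 10019 probe sets, 57 controls were left out and 9962 genes tested, and RefSeq (GRCr8) named 9831 by Entrez ID, the platform annotation 17. Arrays have no read depth, and their number limits the precision.

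Lines were taken from the labels and replicates numbered in accession order. Line was the only term of the limma fit (limma 3.58.1, R 4.3.3) on the 10 passing arrays, with Benjamini-Hochberg adjustment over all genes at 0.05. The slope on locomotor score used line and the score centred within line. Correlations used 100000 permutations (NumPy 2.4.6), or all of them for fewer than 10 arrays and within lines. The members and lists were chosen with earlier results of these data known. Genes named are all members, the 3 smallest unadjusted p of each clock-related list and the 3 nearest in pattern to each member, and marker genes of cell types and neighbouring tissue beside them. Pairs named by rule are 13 textbook pairs; the others (Nr1d2 or Nr1d1 with Bhlhe40, Per1 with Cry2 or Bhlhe40, and the pairs called with all 12 arrays) were picked after their values were seen. The fits and correlations were tested on simulated data. Alternatives were other sets of arrays, normalizations, priors, covariates and filters. After the data had been seen, 3 were added: array measures and the spread on 7 arrays, and array measures centred within lines.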

Additional observations from a re-analysis of the deposited data

Results flagged for a closer look

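The level of Bhlhe40 on bHR replicate 6, 5.45, lay far from the other 4 bHR arrays, which ran from 5.11 to 5.19. Its gap to the nearest array was 0.767 of the range of the line, above the critical value of 0.71 for 5 arrays. Of 20 groups examined, the 10 members in each line, this was the only 1 with such an array, and chance gives about 1 in 20.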

How the results depend on the processing

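No member passed an adjusted p of 0.05 under any of 22 alternatives per member (21 for Per3, which the filter on low signal removed), the smallest adjusted p of a member being 0.383, and the count of genes called stayed at 0 for the line difference and for the locomotor slope in every alternative run, a threshold of 0.10 included. The line difference of 6 of 10 members kept its direction in all of them. The changes of threshold, prior or gene filter, and the first residual component as covariate, left the estimates as they were and could not change a direction. Without the 3 arrays of lowest dap value, Clock differed by 0.0068, Bmal1 by -0.011, Hdac3 by 0.010, Usp2 by 0.033 and Cirbp by -0.0031. With the beta-actin covariate Bmal1 differed by -0.037 and Bhlhe41 by 0.011, and with the Ttr covariate Bmal1 by -0.035. With all 12 arrays Nr1d2 differed by -0.018, Nampt by -0.070, Nfil3 by 0.029 and Bhlhe41 by 0.023. Leaving out 1 array gave -0.010 to 0.055 for Per3, -0.031 to 0.0039 for Clock, -0.047 to 0.052 for Bmal1, -0.015 to 0.077 for Errfi1 and -0.11 to 0.014 for Hsph1.

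Arrays that share a number in their titles deviated together by r of -0.334, 0.263 and 0.409 in the 3 pairs with both arrays passing, so the numbers were not taken to pair the rats. With the numbers as a replicate block, the line difference came from those 3 pairs only, since each other passing array was alone in its block. In that fit 0 genes were called, and 1468 had an unadjusted p under 0.05 against 293 in the main fit. There Per2 differed by 0.0030, Cry2 by 0.14, Per3 by 0.082, Bmal1 by 0.10, Dbp by -0.17, Nr1d1 by -0.17, Prkaa1 by 0.0064 and Errfi1 by -0.044.

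With all 12 arrays, the 2 failed ones included, 2 of 45 pairs were called, against 0 in every other alternative. These were Per1 with Per3 (r = 0.903) and Per1 with Nr1d2 (r = -0.885). On the 10 passing arrays their r was 0.482 (permutation p = 0.158) and -0.425 (permutation p = 0.220). With all 12 arrays r was also -0.451 for Per1 with Per2, -0.626 for Per2 with Per3 and 0.567 for Bmal1 with Per2. It was -0.152 for Bmal1 with Per3 and -0.401 for Nr1d2 with Bhlhe40. By Spearman's rho Dbp had 0.176 with Per3 and 0.055 with Nr1d1. Centred within lines, r was 0.060 for Dbp with Per3, 0.058 for Dbp with Per1 and -0.022 for Per2 with Per3. Without the 2 arrays farthest in the first gene, it was -0.401 for Dbp with Per2 and -0.088 for Bmal1 with Per3. Leaving out 1 array gave -0.230 to 0.155 for Dbp with Per3, -0.243 to 0.013 with Nr1d1, -0.356 to 0.050 with Per1 and -0.299 to 0.347 with Per2, and -0.030 to 0.135 for Per2 with Per3 and -0.298 to 0.011 for Bmal1 with Per2. The cause of these changes was not tested. The deposited values hold no detection calls, so signal over background is not known for single genes. This limits most the genes of low signal, such as Per3 and Nr1d1.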

Other observations

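The 2 failed arrays entered no main comparison above, only the alternatives that took in all arrays. On these 2 failed arrays, most members lay outside the range of the 10 passing arrays. On bHR replicate 1, Per1 (7.40), Per3 (4.88) and Bhlhe40 (5.55) lay above that range, and Per2 (5.48), Clock (4.86) and Nr1d2 (4.83) below it, while Cry2 (6.90), Bmal1 (5.40), Dbp (6.00) and Nr1d1 (5.00) lay within it. On bLR replicate 5, Per1 (7.06) and Nr1d1 (5.23) lay above the range and Per2 (5.25), Clock (5.05), Bmal1 (4.96) and Nr1d2 (5.10) below it.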
